A study of Mus musculus with 14 samples.

Results

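The spots compared here are the capture spots of mouse bone marrow that held the most and the fewest transcripts of complement C1q, in 1 section of leg bone marrow at postnatal day 8 (P8) and 1 section of marrow from leg bones at 89 weeks. Both sections came from wild-type mice bought from the Jackson Laboratory, with 1 mouse and 1 library at each age. Spots under tissue were kept when they held at least 1000 detected genes and when at least 0.5% of their unique molecular identifiers (UMIs, 1 for each captured probe molecule) came from 10 neutrophil genes, which left 317 of the 1085 P8 spots with enough genes and 932 of 932 at 89 weeks. Each remaining spot was ranked by the share of its UMIs that came from C1qa, C1qb and C1qc together. The ranked spots were split into 4 classes of equal size, of which the top was called C1q-high and the bottom C1q-low, giving 79 spots in each class at P8 and 233 in each class at 89 weeks, so that 312 C1q-high spots were drawn from 15985 spots in the 14 sections of the whole series. The ranking used measured C1q values, so C1q levels are given as a description, and the other genes were then compared between the classes within each age.

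C1q is the recognition subunit of the classical complement pathway and is assembled from the chains encoded by C1qa, C1qb and C1qc, which tissue macrophages transcribe together. In blood-forming organs such macrophages sit at the centre of erythroblastic islands, where maturing erythroblasts attach around a central macrophage through Vcam1 and other adhesion molecules, and where the macrophage engulfs expelled nuclei and returns iron from heme. Bone marrow lies against bone, where osteoclasts, the resorbing cells of the same myeloid origin, and the matrix-building osteoblasts line the surfaces. The comparison asks which other genes share a spot with C1q in young and in old marrow, since a spot is a small region that can hold several cells of different types.

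The sections differed in far more than age. The P8 leg bone was fixed and embedded with the bone in place, whereas the 89-week marrow was first separated from its bone by cryosectioning in gelatin and only then embedded. In-tissue depth was 21985060 UMIs at P8, with a median of 16546 per spot, and 8436016 UMIs at 89 weeks, with a median of 8503. Age, mouse, preparation, software version and depth cannot be told apart, and with 1 section per age there was no replicate and no test, so ratios carry only a 95% interval for counting error. A lower value in a class of spots can come from fewer cells of a type or from less RNA per cell, which cannot be told apart here. The 2 sections listed the same 4991 spot barcodes, which are the fixed addresses of the slide and not shared cells.

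Across the 317 P8 marrow spots C1q made up 244 CPM (counts per 1000000 UMIs), against 184 CPM in the 768 other P8 spots with enough genes, and across the 932 spots at 89 weeks it made up 175 CPM. At P8 the 4 classes held 68.5, 166, 259 and 405 CPM from lowest to highest, and 30 of the 79 C1q-low spots had no C1q UMI. The P8 boundaries were narrow, with the highest C1q-low spot at 115.838 CPM beside a middle spot at 117.33, and the lowest C1q-high spot at 310.789 beside a middle spot at 308.463. At 89 weeks they held 0, 60.9, 194 and 413 CPM. None of the 233 C1q-low spots at that age had a C1q UMI, and another 73 spots without one fell in the next class because ties were broken toward spots of fewer UMIs. The 89-week classes therefore also differed in depth, with a median of 5099 UMIs in C1q-low spots and 8489 in C1q-high spots, and at P8 the medians were 18299 and 33069. In the summed C1q-high spots at P8 C1qa, C1qb and C1qc had 350, 319 and 357 UMIs, against 39, 27 and 37 in C1q-low spots. The 89-week C1q-high spots had 443, 168 and 231, a median of 3 C1q UMIs per spot against 13 at P8. A lone C1q UMI was the basis of 23 of the 233 C1q-high spots at 89 weeks and of 7 of the 79 at P8.

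**Figure D1:**
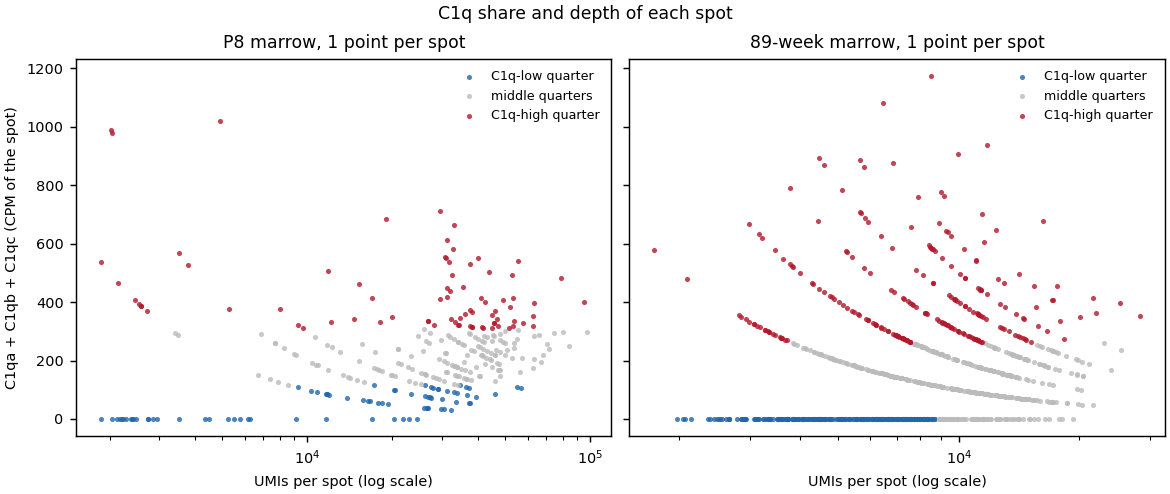
C1q share of each marrow spot (vertical axis, CPM) against the spot's total UMIs (horizontal axis, log scale), P8 left and 89 weeks right, colored by class. The C1q-low spots at 89 weeks all lie at 0 CPM and at 8712 UMIs or fewer, while those at P8 reach 115.838 CPM and 56697 UMIs.

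The 3 chains also tracked each other when only part of them was used for ranking. When spots were ranked by C1qa alone, the summed level of C1qb and C1qc was 1.90-fold higher in the top class at P8 (95% interval 1.57 to 2.31, 211 against 111 CPM) and 2.57-fold higher at 89 weeks (1.91 to 3.52, 126 against 49.0 CPM). With the roles exchanged, C1qa was 1.84-fold higher at P8 (1.42 to 2.42) and 1.82-fold higher at 89 weeks (1.41 to 2.37). The 3 genes lie side by side on chromosome 4 (GRCm38.p6), C1qb at 136880126 to 136886200, C1qc at 136889801 to 136892936 and C1qa at 136895916 to 136898844. Spots next to a C1q-high spot averaged 262 CPM of C1q at P8, against 185 CPM next to a C1q-low spot, and 187 against 148 CPM at 89 weeks. Of the marrow neighbors of C1q-low spots, 42.0% at P8 and 45.3% at 89 weeks were themselves C1q-low, compared with 12.7% and 22.9% of the neighbors of C1q-high spots, so C1q-low spots more often lay beside each other. At 89 weeks the tie rule also gathered shallow spots into that class. C1q-high spots did not gather, since only 24.1% and 27.7% of their neighbors were C1q-high, near the share of 1 class in 4. At P8 neighbors of the third class held 272 CPM of C1q, and 32.2% of them were C1q-high.

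**Figure D2:**
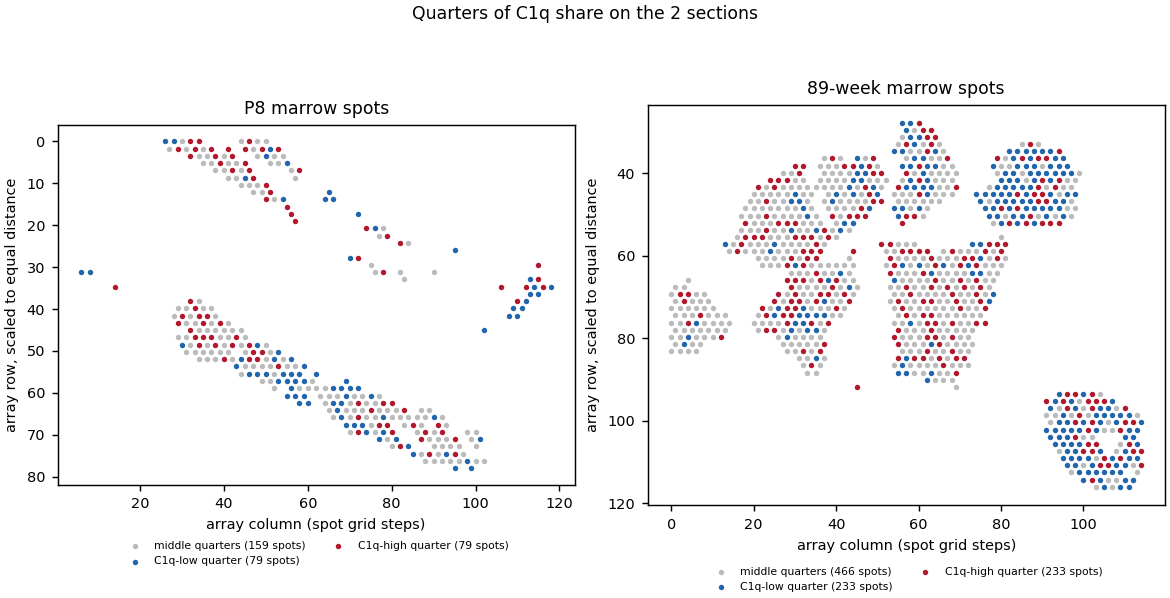
Position of every marrow spot on the slide grid (array column against array row, in grid steps), P8 left and 89 weeks right, with C1q-high spots in red, C1q-low spots in blue and middle spots in gray. At 89 weeks the C1q-low spots lie most densely in the pieces at the upper right and lower right, where 58.5% and 53.1% of marrow spots are C1q-low.

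At P8 the C1q-high spots carried more erythroid and megakaryocyte transcripts and fewer transcripts of bone, cartilage, muscle and osteoclasts. Of 6064 features with at least 100 UMIs over both classes, 584 (9.63%) were at least 1.5-fold higher and 964 (15.9%) at least 1.5-fold lower in C1q-high spots, 25.5% in all, and the median log2 ratio of all 6064 was -0.03. With hemoglobin UMIs taken out of the totals the split was 812 higher and 796 lower. Counting intervals lay wholly on one side of equality for 578 of the 584 and for each of the 964. This follows largely from the minimum of 100 UMIs and 1.5-fold, and the same held for 106 of the 107 calls at 89 weeks.

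Hbb-bs, an adult beta globin, was measured in each P8 spot. It ranged from 4386 through a median of 42630 to 164520 CPM in C1q-low spots and from 7626 through 81908 to 168657 CPM in C1q-high spots. The ranges overlapped over nearly their whole width, and it was the middle of the distribution that was higher. In the class sums Hbb-bs was 1.84-fold higher (1.83 to 1.86). The 8 hemoglobin genes together took 7.58% of UMIs in C1q-low spots, 10.5% and 13.1% in the middle classes and 13.8% in C1q-high spots. All 4 testable hemoglobin genes passed 1.5-fold, as did all 12 of the heme synthesis list, among them Alas2, the first enzyme of the pathway in erythroid cells, at 1.88-fold (1.73 to 2.04). All 16 genes of the red cell membrane list passed as well, including the anion exchanger Slc4a1 at 2.03-fold (1.82 to 2.25). These shares stand against a background of 9.63% of features higher.

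Genes of earlier erythroid stages were higher too. Of the study's erythroid progenitor markers 16 of 19 were past the fold, and of its erythroid cell markers 15 of 17, with median log2 ratios of 0.80 and 0.84 and none lower. The study chose both lists on separate single-cell data. Among erythroid transcription factors 7 of 10 passed, with Gata1 at 2.11-fold (1.73 to 2.59) and Klf1 at 1.83-fold (1.51 to 2.24), and Epor, the erythropoietin receptor, was 2.16-fold higher (1.43 to 3.35). The cell cycle list had 8 of 12 genes past the fold, with the proliferation marker Mki67 at 1.73-fold (1.61 to 1.87). No member of these lists was 1.5-fold lower.

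Megakaryocyte and eosinophil genes supplied many of the largest P8 ratios. The megakaryocyte and platelet list had 8 of 10 genes higher and 1 lower, with a median log2 ratio of 1.18. The platelet chemokine Pf4 had a median of 251 CPM per C1q-low spot and 479 per C1q-high spot, with highest spots of 1472 and 3936 CPM, and its summed ratio was 2.31 (2.07 to 2.57). Of the 10 largest ratios at P8, which did not include Pf4, 4 belonged to genes active in megakaryocytes and platelets, with Plek at 3.17-fold, the von Willebrand factor gene Vwf at 2.64-fold, the chemokine Ppbp at 2.53-fold and the platelet glycoprotein Gp5 at 2.47-fold. The eosinophil granule genes Epx and Prg2 led the ranking. Epx had 122 UMIs against 10 (7.25-fold, 3.81 to 15.5) and was seen in 32 of 79 C1q-high and 10 of 79 C1q-low spots. Prg2, encoding major basic protein, was 3.83-fold higher (3.23 to 4.56), and 50% of its C1q-high UMIs came from 5 spots. Set against their adjacent marrow spots alone, both lists turned, with a median log2 ratio of -0.13 for the megakaryocyte list and -0.07 for the list of mast cells, basophils and eosinophils, Epx at 0.954 and Prg2 at 0.888.

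The genes lower in C1q-high spots at P8 were those of bone and its resorption. All 13 genes of the osteoblast and bone matrix list were at least 1.5-fold lower, with a median log2 ratio of -1.34, and the list took 15.1% of UMIs in C1q-low spots against 6.04% in C1q-high spots. Col1a1, the main collagen chain of bone, ranged from 8558 through a median of 63789 to 163643 CPM in C1q-low spots and from 8151 through 28199 to 186085 CPM in C1q-high spots, so that the ranges overlapped while the medians lay far apart. Its summed ratio was 0.413 (0.409 to 0.417), and Spp1 (osteopontin) stood at 0.279 and Bglap (osteocalcin) at 0.351. The spots chosen as marrow at this age thus held bone transcripts at a high level in both classes.

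All 7 testable genes of the osteoclast list were also lower, with a median log2 ratio of -1.97. The bone-degrading protease Ctsk stood at 4765 CPM in C1q-low spots, 3248 and 1678 CPM in the middle classes and 1163 CPM in C1q-high spots, a ratio of 0.244 (0.234 to 0.255). Most of the 10 smallest ratios belonged to genes known from osteoclasts, including Dcstamp (0.181) and Ocstamp (0.256), which mediate their fusion, Siglec15 (0.234) and the proton pump subunit Atp6v0d2 (0.242). The tartrate-resistant phosphatase Acp5 stood at 0.299 and Csf1r, the receptor for the macrophage growth factor, at 0.473. All 9 testable cartilage genes and 7 of 8 muscle genes were lower too, with Col2a1 at 0.482 and Acta1 at 0.439. Of the lysosome list 9 of 17 were lower and 1 higher, a list that osteoclasts share with macrophages.

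**Figure D3:**
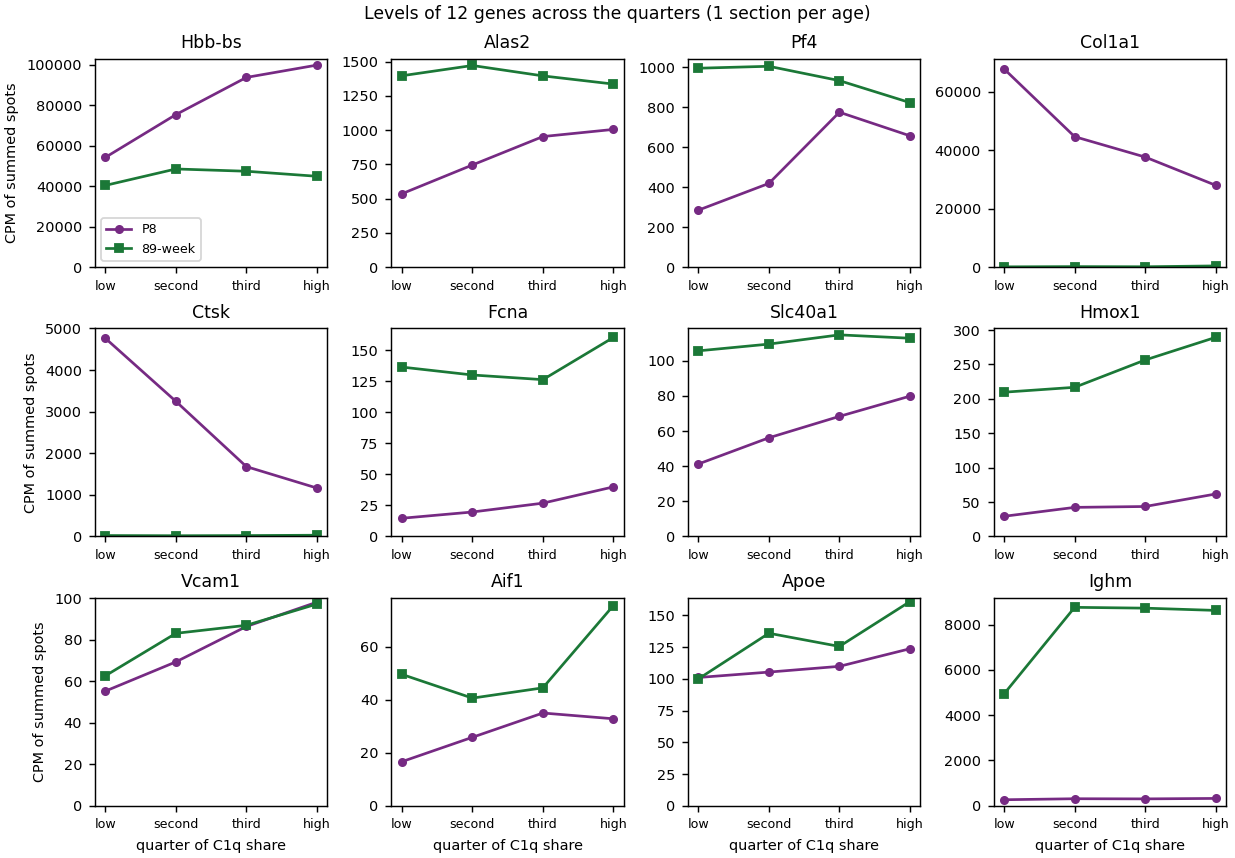
Level of 12 genes in the summed spots of each class of C1q share (CPM, from the lowest to the highest of 4) at P8 and at 89 weeks, 1 section per age and therefore without error bars. At P8 Hbb-bs goes up stepwise from 54231 to 99851 CPM while Col1a1 goes from 67703 to 27958 CPM, and at 89 weeks Hbb-bs stays between 40377 and 48510 CPM.

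Transcripts of bone, and those of hemoglobin, moved with most of the P8 differences. Bone, osteoclast, cartilage and muscle genes together made up a median of 18.8% of the UMIs of a C1q-low spot (range 2.54 to 41.3%) and 7.30% of a C1q-high spot (2.33 to 36.4%). When classes were formed within 10 bins of this bone share, so that the classes held 8.69% and 9.93% of bone UMIs, 23 features were higher and 89 lower, and of the original calls 7 of 584 and 55 of 964 were left. The hemoglobin list then had a median log2 ratio of 0.09, the heme synthesis list 0.04, the megakaryocyte list 0.15 and the cell cycle list -0.02. Hbb-bs stood at 1.07-fold, Pf4 at 1.30-fold and Epx at 1.28-fold. The osteoclast list then had a median of -0.60 and Ctsk a ratio of 0.622 (0.595 to 0.650), whereas Col1a1 stood at 1.23 and the bone matrix list at a median of 0.28. These genes are themselves part of the matched share, so their values there partly follow from the matching and are not a separate result. Matching hemoglobin share in place of bone share left about as few calls, with 59 features higher and 53 lower. Of these, 22 and 43 were among the original calls. Comparison with adjacent spots gave 32 higher and 91 lower, of which 8 and 62 were among the original calls. All 3 settings also narrowed the C1q difference between the classes. The C1q level of C1q-low spots went from 68.5 CPM to 117 CPM at matched bone share and at matched hemoglobin share. Against adjacent spots it was higher still, while that of C1q-high spots changed little. The separate parts of bone share, hemoglobin share and the smaller C1q difference in the fewer calls were not tested. Matching by bone and by hemoglobin share was added after the first results had been seen. Classes formed within 10 bins of spot UMIs gave 128 features higher and 590 lower, with the hemoglobin list at 0.58, the bone matrix list at -0.84 and Epx at 1.34-fold. Matching spot UMIs also raised the C1q level of C1q-low spots.

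Some macrophage genes were higher in P8 C1q-high spots both over all marrow spots and at matched bone share, and others were not. Fcna, a ficolin of tissue macrophages, was detected in 48 of 79 C1q-high spots (median 28.8, highest 170 CPM) and in 17 of 79 C1q-low spots (median 0, highest 222 CPM), a ratio of 2.73 (1.71 to 4.55) that became 1.87 (1.27 to 2.80) at matched bone share. The scavenger receptor Marco had 57 UMIs against 5, a ratio of 6.78 (2.74 to 21.7), and 4.20 (2.05 to 9.72) at matched bone share. Cd5l, a secreted macrophage protein, had 34 against 6 and ratios of 3.37 and 2.93, and Il18, a macrophage cytokine, had 37 against 8 and ratios of 2.75 and 3.22. Marco, Cd5l and Il18 were below 100 UMIs, outside the counts above, and singled out after their values were seen. Other genes of few UMIs came near equality at matched bone share. Timd4 went from 4.16 to 1.24 (0.613 to 2.61) and Spic from 1.98 to 1.19 (0.651 to 2.25). At matched hemoglobin share Il18 stood at 1.79 (0.850 to 4.03), Fcna at 1.85, Marco at 5.52 and Cd5l at 4.20. At 89 weeks Il18 stood at 1.81, at 0.910 at matched spot UMIs and at 0.885 within tissue pieces. Axl, a receptor for apoptotic cells, was 1.63-fold higher and 1.54-fold (1.23 to 1.94) at matched bone share. Fcna, Marco and Cd5l are on the study's C1q+ macrophage list, chosen on separate single-cell data, and Il18 is on the erythroblastic island list.

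Vcam1, Hmox1, Slc40a1 and Aif1, genes of the macrophage lists, were higher in the P8 comparison but below 1.5-fold once bone share was matched, with Vcam1 and Aif1 nearest to equality. Vcam1 is also on the stromal niche list, so the cells it came from cannot be told apart. On the erythroblastic island list 6 of 9 testable genes were higher and 1 lower, with a median log2 ratio of 0.68 that became 0.28. The list includes Epor, given above among the erythroid genes and its largest testable ratio, and Trf, which the study also names as an erythroid marker. Its count is therefore not one of macrophage genes alone. Vcam1 was found in 58 of 79 C1q-high and 36 of 79 C1q-low spots, with medians of 71.2 and 0 CPM and highest spots of 538 and 458 CPM. Its ratio was 1.78 (1.38 to 2.31), and 1.13 (0.920 to 1.40) at matched bone share. The heme-degrading enzyme Hmox1 went from 2.11 to 1.34 (1.00 to 1.79), the iron exporter Slc40a1 from 1.94 to 1.35 (1.06 to 1.74), and Aif1, which encodes the macrophage protein Iba1, from 1.97 to 1.08 (0.752 to 1.56). Of the whole C1q+ macrophage list, leaving out C1q, 6 of 12 were higher and 1 lower. Adgre1, which encodes F4/80, had only 13 and 5 UMIs and Siglec1 only 2 and 1, so these defining markers were near 0 in the P8 section. Mertk, another receptor for dying cells, stood at 0.653, a log2 ratio that turned positive at matched bone share (0.24) and at matched hemoglobin share (0.045), in bone-poor spots (0.19), against adjacent spots (0.30) and in thinned spots (0.32). Among dead-cell clearance genes 2 of 13 were higher and 4 lower, against 9.63% and 15.9% of all features.

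**Figure D4:**
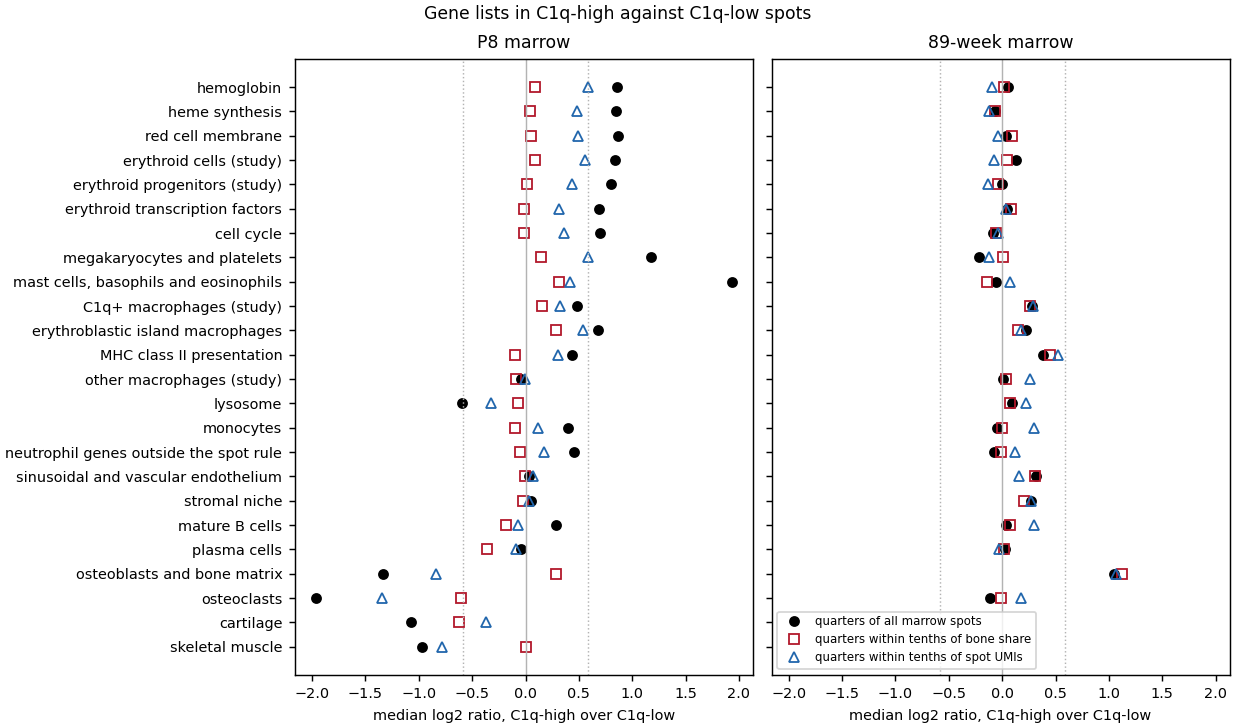
Median log2 ratio, C1q-high over C1q-low, of the testable genes of 24 lists at P8 (left) and at 89 weeks (right), for classes formed over all marrow spots (filled circles), within 10 bins of bone share (squares) and within 10 bins of spot UMIs (triangles), with dotted lines at 1.5-fold. At P8 the erythroid lists go from about 0.8 to near 0 when bone share is matched, and at 89 weeks only the osteoblast and bone matrix list, at 1.05, lies past the dotted lines.

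At 89 weeks the classes were far more alike, and the erythroid difference of P8 was not seen. Of 4803 features, 53 (1.1%) were at least 1.5-fold higher and 54 (1.12%) at least 1.5-fold lower in C1q-high spots, 2.23% in all, with a median log2 ratio of -0.05. Scaled by the median ratio in place of total UMIs, the split was 79 higher and 37 lower. Hbb-bs ranged from 10925 through a median of 38163 to 94864 CPM in C1q-low spots and from 8943 through 41404 to 104593 CPM in C1q-high spots, nearly the same distribution, and its summed ratio was 1.11 (1.10 to 1.12). None of the 3 hemoglobin, 11 heme synthesis, 15 red cell membrane, 17 progenitor, 12 cell cycle and 13 megakaryocyte genes passed the fold in either direction. Of the 16 erythroid cell markers 1 did, Gmpr, a purine nucleotide enzyme, at 1.51-fold (1.04 to 2.24). Alas2 stood at 0.957 (0.900 to 1.02) and Pf4 at 0.827 (0.768 to 0.891), below equality.

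A few genes of the macrophage lists were higher at 89 weeks, while most of those lists had no member past the fold. Of these genes Vcam1 is also on the stromal niche list, and its source cells cannot be told apart. Vcam1 was found in 127 of 233 C1q-high and 59 of 233 C1q-low spots (medians 88.0 and 0, highest 452 and 555 CPM) and was 1.55-fold higher (1.19 to 2.05). Aif1 was found in 103 against 51 spots and was 1.52-fold higher (1.13 to 2.09), and Apoe, a lipid carrier made by macrophages, in 162 against 97 spots at 1.61-fold (1.30 to 2.00). Because C1q-high spots were deeper, counts of spots with a UMI favor them, and at matched spot depth the ratios were 1.40 for Vcam1, 1.90 for Aif1 and 1.37 for Apoe. Aif1 and Apoe were the only members of the C1q+ macrophage list past the fold among 13, and 11 of 13 stood above equality, with a median log2 ratio of 0.28. Fcna stood at 1.17 (0.973 to 1.42), Slc40a1 at 1.07 (0.858 to 1.33) and Hmox1 at 1.38 (1.19 to 1.60). Vcam1 was the only erythroblastic island gene of 7 to pass, and of the defining markers Adgre1 had 18 and 7 UMIs and Siglec1 2 and 3, again near 0. No gene passed 1.5-fold in either direction among 17 of the study's other macrophage markers (median log2 ratio 0.0034), 17 lysosome genes (0.093), 10 dead-cell clearance genes (0.057), 8 iron and heme recycling genes (0.11) and 7 monocyte genes (-0.052).

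All 7 genes of the MHC class II list, which present antigen in B cells, dendritic cells and macrophages, stood above equality at 89 weeks although none passed 1.5-fold. H2-Aa was 1.45-fold (1.23 to 1.71), H2-Ab1 1.46-fold (1.26 to 1.70) and the invariant chain Cd74 1.26-fold higher (1.21 to 1.31), and the list's median log2 ratio was 0.38, against -0.05 for all features. At matched depth it was 0.52. At P8 only Cd74 had enough UMIs of the 7.

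Immunoglobulin genes were the most abundant of the 89-week calls, and their levels differed widely between pieces of tissue. Igkv19-93, a kappa variable segment, ran from 0 through a median of 114 to 21776 CPM in C1q-high spots and from 0 through 0 to 3394 CPM in C1q-low spots, and its summed ratio was 4.64 (4.10 to 5.27). Ighm, the IgM heavy chain, was 1.75-fold (1.69 to 1.80), the joining segment Ighj4 2.07-fold, and the IgG heavy chains Ighg2c 1.74-fold and Ighg2b 1.67-fold (1.63 to 1.70) higher, while another kappa segment, Igkv12-89, stood at 0.539 (0.433 to 0.672). Variable segments are near-identical within families, so the assignment of their probes is uncertain. The section consisted of 6 separate pieces of 318, 227, 128, 118, 84 and 56 marrow spots. Igkv19-93 stood at 2880 CPM in the piece of 227 spots, at 404 CPM in the largest and at 85.8 to 104 CPM in the other 4, and Ighm at 14601 CPM in the same piece and 4108 to 6038 CPM elsewhere, whereas Ighg2b was highest in the pieces of 318 and 56 spots, at 24097 and 24455 CPM. In the piece of 227 spots 9.25% of spots were C1q-low, compared with 53.1% and 58.5% in the pieces of 128 and 118 spots, whose median depths were 4725 and 4493 UMIs against 10869. With the classes formed within pieces, the ratio of Igkv19-93 was 0.463 (0.436 to 0.491), that of Ighm 0.897 (0.878 to 0.917) that of Ighj4 0.677 and that of Ighg2b 0.760, so all 4 turned to the opposite direction, while Ighg2c stood at 1.27. Directions also turned without regard to pieces. At matched spot UMIs Igkv19-93 stood at 0.668 (0.630 to 0.708), Ighg2b at 0.699 and Ighj4 at 0.907, and against adjacent spots the log2 ratio of Ighg2c was -0.89 and that of Ighm -0.13. Igkv19-93 also turned with 3 classes and with a minimum of 2000 genes, at log2 ratios of -0.092 and -0.067. The separate parts of depth and piece were not tested. Within pieces Vcam1 stood at 1.30 (1.04 to 1.64), Aif1 at 1.84 (1.38 to 2.48) and Apoe at 1.5.

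Bone matrix genes were also among the largest ratios at 89 weeks, in the direction opposite to P8 and from very few spots. Col1a1 had 826 UMIs in C1q-high against 106 in C1q-low spots, a ratio of 4.70 (3.84 to 5.81). It was seen in 109 and 68 of the 233 spots, its median was 0 in both classes, and the highest spots had 38976 and 3079 CPM. Of its C1q-high UMIs 80% came from 5 spots, and without the 5 highest spots of each class the ratio was 1.27. Bglap2 (3.23), Spp1 (2.08) and Col1a2 (2.07) followed it, the last at 1.01 without those spots. The piece of 128 spots held 1032 CPM of Col1a1, and the other pieces 74.3 to 362 CPM. Bone, osteoclast, cartilage and muscle genes made up only 0.265% of UMIs in C1q-high and 0.217% in C1q-low spots at this age. Kdr, the endothelial receptor for VEGF, was 1.53-fold higher (1.10 to 2.15) and was the only 1 of 6 endothelial genes past the fold, and with 10 classes in place of 4 its log2 ratio turned to -0.22.

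The smallest ratios at 89 weeks belonged to genes of unrelated roles with few UMIs. Coagulation factor F5 stood at 0.532 (0.359 to 0.786) with 52 and 59 UMIs, the cardiolipin pathway enzyme Pgs1 at 0.548, Helb at 0.573, the sodium pump subunit Atp1b1 at 0.584, Men1 at 0.597 and Nkg7, a cytotoxic granule gene, at 0.597 (0.443 to 0.805). At matched depth 10 features in all were 1.5-fold lower and 91 higher.

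Across the ages, 4229 features were testable in both sections and 7 passed 1.5-fold in the same direction in both. Vcam1 (1.78 and 1.55), Aif1 (1.97 and 1.52) and Btnl10 (1.62 and 1.57), a butyrophilin-like gene, were higher at both ages, 0.0709% of the features. Tcirg1, a proton pump subunit of osteoclasts (0.425 and 0.629), the SMAD corepressor Ski (0.632 and 0.667), Tank (0.659 and 0.639) and Zfp219 (0.659 and 0.613) were lower at both, 0.0946%. Of the 42 89-week higher calls tested at P8, 3 (7.14%) were also higher there. That is a smaller share than the 480 of all 4229 features that were higher at P8. Of the 39 lower calls 4 (10.3%) were also lower there, a larger share than the 284 of all 4229. The overlap was not tested. Another 15 passed in opposite directions, 8 (0.189%) higher at P8 and lower at 89 weeks and 7 (0.166%) the reverse, and 1993 of the 4229 (47.1%) had the same sign. Of the 3 shared higher genes, Btnl10 stood at 0.986 at matched depth and at 0.969 within pieces at 89 weeks, and at P8 Vcam1 and Aif1 came close to equality at matched bone share, as given above. Of the shared lower genes, the P8 log2 ratio of Ski turned to 0.16 at matched bone share and 0.0023 at matched hemoglobin share, and the 89-week log2 ratio of Tank to 0.021 when spots were ranked by C1qb and C1qc. Vcam1 was at nearly the same level in both sections, 55.2 and 62.6 CPM in C1q-low spots and 98.0 and 97.1 CPM in C1q-high spots, and its level went up with each class at both ages. The difference between the ages itself was not tested, since each age was 1 section.

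**Figure D5:**
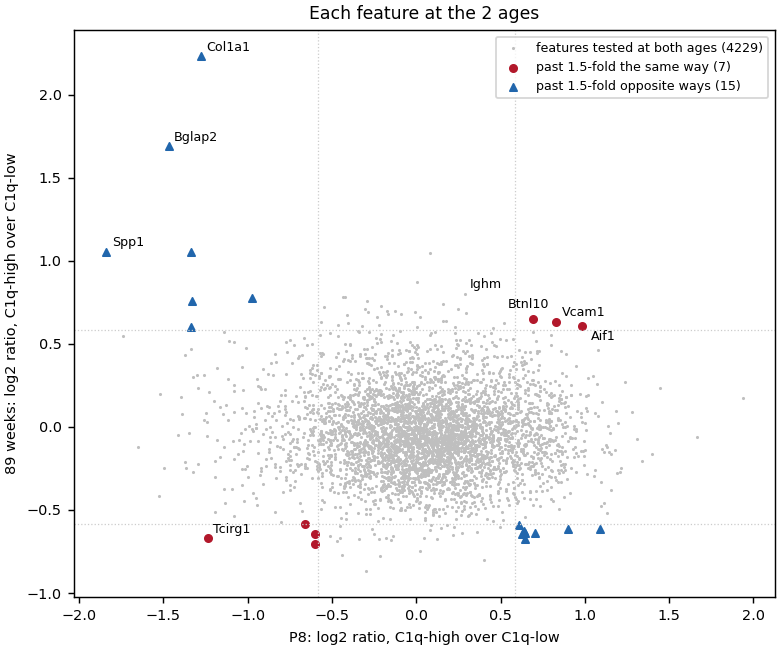
Log2 ratio, C1q-high over C1q-low, at P8 (horizontal axis) and at 89 weeks (vertical axis) for the 4229 features testable at both ages, with dotted lines at 1.5-fold, features past the fold in the same direction at both ages as circles and those in opposite directions as triangles. Vcam1, Aif1 and Btnl10 lie at the upper right, Col1a1, Bglap2 and Spp1 at the upper left.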

How the data were processed

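Per the labels and file headers, the authors prepared probe-based 10x Genomics Visium libraries from formalin-fixed sections and aligned them to mm10, the P8 section with a header naming Cell Ranger 4 and the 89-week section with Space Ranger 2.1.1. The deposited matrices hold raw UMI counts per feature and spot, unfiltered and unnormalized, and deposited position tables of another kind give each spot's grid place. Counts were summed over the spots of each class, C1q genes left out, and scaled to 1000000 UMIs per class (CPM). Features with at least 100 UMIs over both classes were compared, and a ratio of at least 1.5 either way was counted. The 304 deprecated features were not compared, but their UMIs stayed in the class totals. Intervals are exact conditional binomial and cover counting error only. With 1 section per age no test was made. The members, the 35 gene lists and the comparisons were chosen with earlier results of these data known. Genes were named by rule, as the 10 largest and 10 smallest ratios at each age, genes past the fold at both ages, and the leading members of each list. Pieces of tissue were groups of at least 20 touching spots. The procedure was tested on simulated counts. Python 3.11.15, numpy 2.4.6, scipy 1.17.1 and pandas 2.3.3 were used.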

Additional observations from a re-analysis of the deposited data

Results flagged for a closer look

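Several quantities pointed in opposite directions at P8 and at 89 weeks, with the 2 ages' C1q-high over C1q-low log2 ratios on either side of 0. Each age was 1 section, so the difference between the ages was not tested, and preparation differed with age. The megakaryocyte and platelet list had a median of 1.18 at P8 and -0.22 at 89 weeks, and the osteoblast and bone matrix list -1.34 and 1.05. Within that list Col1a1 stood at -1.28 and 2.23, Col1a2 at -1.34 and 1.05, Bglap2 at -1.47 and 1.69, and Spp1 at -1.84 and 1.06. Pam, a peptide-amidating enzyme, stood at -0.97 and 0.77, and the chemokine gene Ccl9 at -1.33 and 0.76. In the other direction Shcbp1 stood at 0.64 and -0.67, the chromatin remodeler Smarca5 at 0.64 and -0.64, Gcdh, an enzyme of lysine breakdown, at 0.70 and -0.64, and the replication stress gene Traip at 0.64 and -0.63.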

How the results depend on the processing

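Each age is 1 section, so every value describes those sections, and depth limits what could be compared, with a median of 218 UMIs per tested feature at P8 and 214 at 89 weeks. No paired analysis was possible because each age is 1 section and the classes are spots of the same library. The settings for the bone-poor spots, bone share, hemoglobin share, tissue pieces and the removal of the 5 highest spots were chosen after seeing the data. Where a value changed below and nothing in the setting's own construction shows why, the cause was not tested.

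Counts of features past the fold are given in the order P8 higher, P8 lower, 89-week higher, 89-week lower, same direction at both ages and opposite directions. They were 584, 964, 53, 54, 7 and 15 as reported, 975, 2047, 409, 364, 92 and 129 with a minimum of 30 UMIs, 272, 290, 9, 6, 1 and 2 with 300 UMIs, and 1305, 1683, 355, 532, 148 and 176 at a lower fold threshold. Thinning every spot to 2000 UMIs gave 55, 57, 25, 19, 0 and 3, comparison with adjacent spots 32, 91, 48, 20, 0 and 1, matched spot UMIs 128, 590, 91, 10, 1 and 13, matched bone share 23, 89, 75, 34, 1 and 2, matched hemoglobin share 59, 53, 60, 30, 0 and 1, tissue pieces 501, 968, 95, 16, 3 and 14, and the bone-poor spots 20, 140, 28, 43, 3 and 2. The top and bottom of 3 classes gave 381 higher at P8 and 27 lower at 89 weeks, and those of 10 classes gave 310 and 247 at P8 with 12 in the same and 6 in opposite directions. The number of testable features changed with the setting, so these counts are not shares. At P8 the reported 9.63% higher and 15.9% lower were of 6064 features. Thinned spots left 275 features, with 20% higher and 20.7% lower, and 10 classes left 1616, with 19.2% and 15.3%. Matched bone share had 0.376% and 1.45% of 6122. A neutrophil minimum of 1% gave 161 and 468 at P8, with 4 in the same and 9 in opposite directions. Ranking by C1qa gave 359 higher at P8, ranking by C1qb and C1qc 11 in the same direction, 2000 detected genes 18 lower at 89 weeks, thinning the class sums 6 in opposite directions, and the mean of per-spot CPM 15 in the same direction. Without the 5 highest spots of each gene 144 were higher and 34 lower at 89 weeks, and 20 had the same direction at both ages.

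Log2 ratios that changed sign at 89 weeks were those of Igkv19-93 with 3 classes (-0.092), matched UMIs (-0.58), adjacent spots (-0.79), 2000 genes (-0.067) and pieces (-1.11), Ighg2b with 3 classes (-0.20), matched UMIs (-0.52), adjacent spots (-0.20) and pieces (-0.40), Ighj4 with matched UMIs (-0.14), adjacent spots (-0.42) and pieces (-0.56), and Ighm with adjacent spots (-0.13) and pieces (-0.16). Ighg2c changed sign with adjacent spots (-0.89), Btnl10 with matched UMIs (-0.021) and pieces (-0.046), Nkg7 with pieces (0.075), Llph with matched UMIs (0.21), Kdr (-0.22) and Gcdh (0.0020) with 10 classes, Tank when ranked by C1qb and C1qc (0.021), and Pam (-0.14) and Col1a2 (-0.20) in bone-poor spots.

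At P8 matched bone share turned the lists of erythroid transcription factors (-0.017), bone matrix (0.28), skeletal muscle (0.00088) and cell cycle (-0.015), and Mertk (0.24), Bglap2 (0.61), Bglap (0.73), Ski (0.16), Col1a2 (0.35), Col1a1 (0.30), Mki67 (-0.035), Traip (-0.036) and Itga2b (-0.041). The bone matrix and muscle genes belong to the matched share, which brings the classes together in those genes by construction. Bone-poor spots turned Mertk (0.19), Bglap2 (0.20), Bglap (0.33), Shcbp1 (-0.10) and Itga2b (-0.054). Matched hemoglobin share, which removes hemoglobin differences by construction, turned the lists of erythroid progenitors (-0.00096), hemoglobin (-0.060), red cell membrane (-0.012), skeletal muscle (0.10) and interferon-stimulated genes (-0.12), and Hbb-bs (-0.053), Alas2 (-0.071), Gata1 (-0.12), Dyrk3 (-0.18), Btnl10 (-0.23), Gcdh (-0.52), Mertk (0.045), Bglap2 (0.015), Bglap (0.12) and Ski (0.0023). Comparison with adjacent spots turned the lists of megakaryocytes (-0.13) and of mast cells, basophils and eosinophils (-0.068), and Epx (-0.068), Prg2 (-0.17), Ppbp (-0.19), Vwf (-0.12), Itga2b (-0.29), Gcdh (-0.38), Btnl10 (-0.028) and Mertk (0.30). Spots thinned to 2000 UMIs turned Mertk (0.32), Shcbp1 (-0.48), Klf1 (-0.17) and Trf (-0.26), and 10 classes turned Tm4sf19 (1.29).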

Other observations

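The counts of the remaining lists are to be read against 9.63% of all features higher and 15.9% lower at P8, and 1.1% and 1.12% at 89 weeks. Among interferon-stimulated genes 2 of 3 testable were 1.5-fold higher (median log2 ratio 0.73), which became 0.056 at matched bone share and 0.75 at matched spot UMIs, and at 89 weeks all 6 testable stood above equality with none past the fold (median 0.29). Complement genes other than C1q had 1 of 5 higher and 1 lower at P8 (median 0.42) and none of 7 past the fold at 89 weeks (median 0.24). The P8 summed ratio of this list was below equality, at 0.768 (0.714 to 0.827). Monocyte genes had 1 of 7 higher and 2 lower at P8 (median 0.40) and none of 7 at 89 weeks (median -0.052). Endothelial genes had none of 9 past the fold at P8 (median 0.035). Neutrophil genes that did not choose the spots had 3 of 13 higher and 1 lower at P8 (median 0.45) and none of 17 past the fold at 89 weeks (median -0.078). Their summed share at P8 went the other way, 0.384% of UMIs in C1q-low and 0.260% in C1q-high spots, a ratio of 0.678 (0.654 to 0.702). Mmp9 is on both this list and the osteoclast list. The stromal niche list had 1 of 7 higher and 1 lower at P8 and 1 of 5 higher and 1 lower at 89 weeks, and the early B cell list 1 of 7 lower at P8 (median 0.40) and none of 4 at 89 weeks (median -0.041). The higher stromal niche gene was Vcam1 at both ages. The mature B cell list had none of 3 past the fold at P8 (median 0.29). The study's list of other macrophages, chosen on separate single-cell data, had 2 of 16 higher and 2 lower at P8 (median -0.043) and none of 17 at 89 weeks.

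In the 89-week section the second class of C1q share held the highest level of both Igkv19-93 and Ighg2b. Igkv19-93 stood at 232, 1478, 950 and 1078 CPM from the lowest to the highest of the 4 classes, and Ighg2b at 8147, 22160, 16613 and 13572 CPM. Both middle classes lay above the C1q-high class for Ighg2b, and for Igkv19-93 only the second did.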
